A study of Sus scrofa with 92 samples.

Results

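A group of 4 genes of the airway lining was followed across a pig transcriptome series: the secretoglobins SCGB1A1, SCGB3A1 and SCGB3A2 and the BPI fold protein gene BPIFA1. Members were the rows of the expression tables whose pig Ensembl gene ID carries one of these symbols, which gave 4 of 25322 gene IDs, of which 11804 carry any symbol. Their IDs are ENSSSCG00000013060 (SCGB1A1), ENSSSCG00000014008 (SCGB3A1), ENSSSCG00000024111 (SCGB3A2) and ENSSSCG00000007260 (BPIFA1).

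The series holds 92 RNA-seq libraries from pigs of 10 breeds at 60 days of age. Single tissues make up 83 of them: lung (8 libraries), heart, liver, kidney, subcutaneous adipose and ovary (9 each), and spleen, psoas major and longissimus dorsi (10 each), while 9 are mixtures of several tissues of a breed. The labels name no allele, agent or treatment, do not give the make-up of a mixture, and do not say whether animals were pooled or whether the tissues of a breed came from 1 animal. The lung libraries come from Bamei, Jinhua and Meishan, which are Chinese breeds, and from Berkshire, Hampshire, Landrace, Large White and Piétrain, which are Western breeds. The origins are general knowledge and are not in the labels. Rongchang has a mixture and 8 tissues but no lung, and Tibetan wild boar has spleen and both skeletal muscles alone. Each breed has 1 library per tissue, so breeds are the replicates, and every p measures the spread between libraries of different breeds. In the fit over all single tissues that spread was pooled over the tissue classes.

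Secretoglobins are small secreted proteins of mucosal surfaces. In the mammalian airway SCGB1A1, also called club cell secretory protein or uteroglobin, is the classic product of the club cells of the bronchioles. SCGB3A1 and SCGB3A2 are secreted by airway epithelial cells as well, SCGB3A1 mostly in the larger airways in mouse and human. BPIFA1, also called SPLUNC1, belongs to the bactericidal/permeability-increasing fold family. It is secreted by the epithelium and glands of the upper and larger airways and takes part in host defence and in the control of airway surface liquid. Its neighbour in the gene cluster, BPIFB1, is a related secreted protein of the same airways. In the RefSeq gene order of the newer pig assembly Sscrofa11.1, BPIFA1 lies between BPIFA3 and BPIFB1. SCGB1D1, another secretoglobin gene, is the third gene after SCGB1A1 in that order, behind ASRGL1 and PHEROC.

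All levels are FPKM as the authors deposited them (fragment counts divided by transcript length and library size), so levels of different genes are per length and can be set side by side. Fits used log2 of FPKM scaled between libraries plus a pseudocount of 1, a scale that understates the change of low genes. Read counts were not analysed here, so depth and the counting error of low values are unknown. Across the lung libraries 13623 to 13819 gene IDs reached 1 FPKM. An exact 0 can be a failed estimate in these tables: ALB, the albumin gene, is listed at 0 in all 9 livers, although ACTB, GAPDH and TUBA1B are above 0 in all 92 libraries. A 0 is therefore given as "listed at 0". The lungs carried the markers of the tissue: SFTPB, a surfactant protein of alveolar type II cells, stood at 1004 to 1503 FPKM and AGER, a receptor of alveolar type I cells, at 551 to 794 FPKM. Among the mixtures that of Piétrain stood apart, with SFTPB at 40.1% of its level in Piétrain lung, against 3.47% to 18.9% in the other 7 breeds with a lung.

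The 4 genes were abundant in lung and mostly at a few FPKM or less elsewhere, apart from SCGB1A1 in several livers and in Jinhua adipose. SCGB1A1 had 2243 FPKM in Bamei lung, 2553 in Jinhua, 1521 in Meishan, 62.7 in Berkshire, 2073 in Hampshire, 39.7 in Landrace, 616 in Large White and 195 in Piétrain. The 3 Chinese lungs and the Hampshire lung were high, and the Berkshire and Landrace lungs were low. In the other 75 single-tissue libraries SCGB1A1 was listed at 0 in 47, and the highest value was 74.4 FPKM in Meishan liver, which is above the Landrace and Berkshire lungs, so the lung and liver values overlap. In the fit over the 83 single-tissue libraries lung exceeded its nearest class, liver, by 5.06 ± 0.52 on the log2 scale (SE, limma, adjusted p = 5.67e-14), and the other classes by 7.61 to 8.43. All classes shared a common estimate of the spread in this fit, in which the many values at or near 0 outside lung weigh. For each of the 4 genes its SE and p therefore do not give the spread between lungs, whose SD was 2.41 for SCGB1A1. In these bulk libraries, fewer cells of a type and less RNA per cell cannot be told apart.

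SCGB3A1 had 322 FPKM in Bamei lung, 430 in Jinhua, 144 in Meishan, 261 in Berkshire, 253 in Hampshire, 466 in Landrace, 141 in Large White and 668 in Piétrain. Outside lung it was listed at 0 in 42 of 75 libraries and reached 4.60 FPKM at most, in Hampshire adipose, so the lungs and the other tissues did not overlap. Lung exceeded its nearest class after scaling, heart, by 6.84 ± 0.28 on the log2 scale (SE, limma, adjusted p = 2.77e-34).

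SCGB3A2 had 458 FPKM in Bamei lung, 471 in Jinhua, 297 in Meishan, 221 in Berkshire, 85.9 in Hampshire, 212 in Landrace, 232 in Large White and 181 in Piétrain. It was listed at 0 in 59 of the 75 other libraries, among them every heart, spleen, kidney and psoas major, and its highest value there was 3.28 FPKM in Bamei ovary. The lungs and the other tissues again did not overlap. Lung exceeded liver, the nearest class after scaling, by 6.59 ± 0.17 on the log2 scale (SE, limma, adjusted p = 1.76e-47).

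BPIFA1 had 39.9 FPKM in Bamei lung, 362 in Jinhua, 54.4 in Meishan, 259 in Berkshire, 76.5 in Hampshire, 189 in Landrace, 80.5 in Large White and 528 in Piétrain. It was listed at 0 in 64 of the 75 other libraries, and none of them reached 1 FPKM. The highest value outside lung was 0.499 FPKM, in psoas major of Tibetan wild boar. Lung exceeded skeletal muscle, the nearest class, by 6.46 ± 0.18 on the log2 scale (SE, limma), with 1.90e-40 as the largest adjusted p over its 7 pairs. This SE comes from the spread pooled over all classes, whereas the lungs alone had an SD of 1.35.

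Under the rule used for lung (higher than each of the other 7 classes, every log2 difference above 1 and every adjusted p below 0.05) all 4 genes were called, against 1.46% of the 17207 genes tested. BPIFA1 passed the filter for testing only through its lung levels, so its call was largely fixed in advance. The scaling moved the median of all genes: lung minus the mean of the other classes had a median of -0.08 on the log2 scale after scaling and 0.32 in the deposited values, both small beside the differences of the 4 genes.

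**Figure D1:**
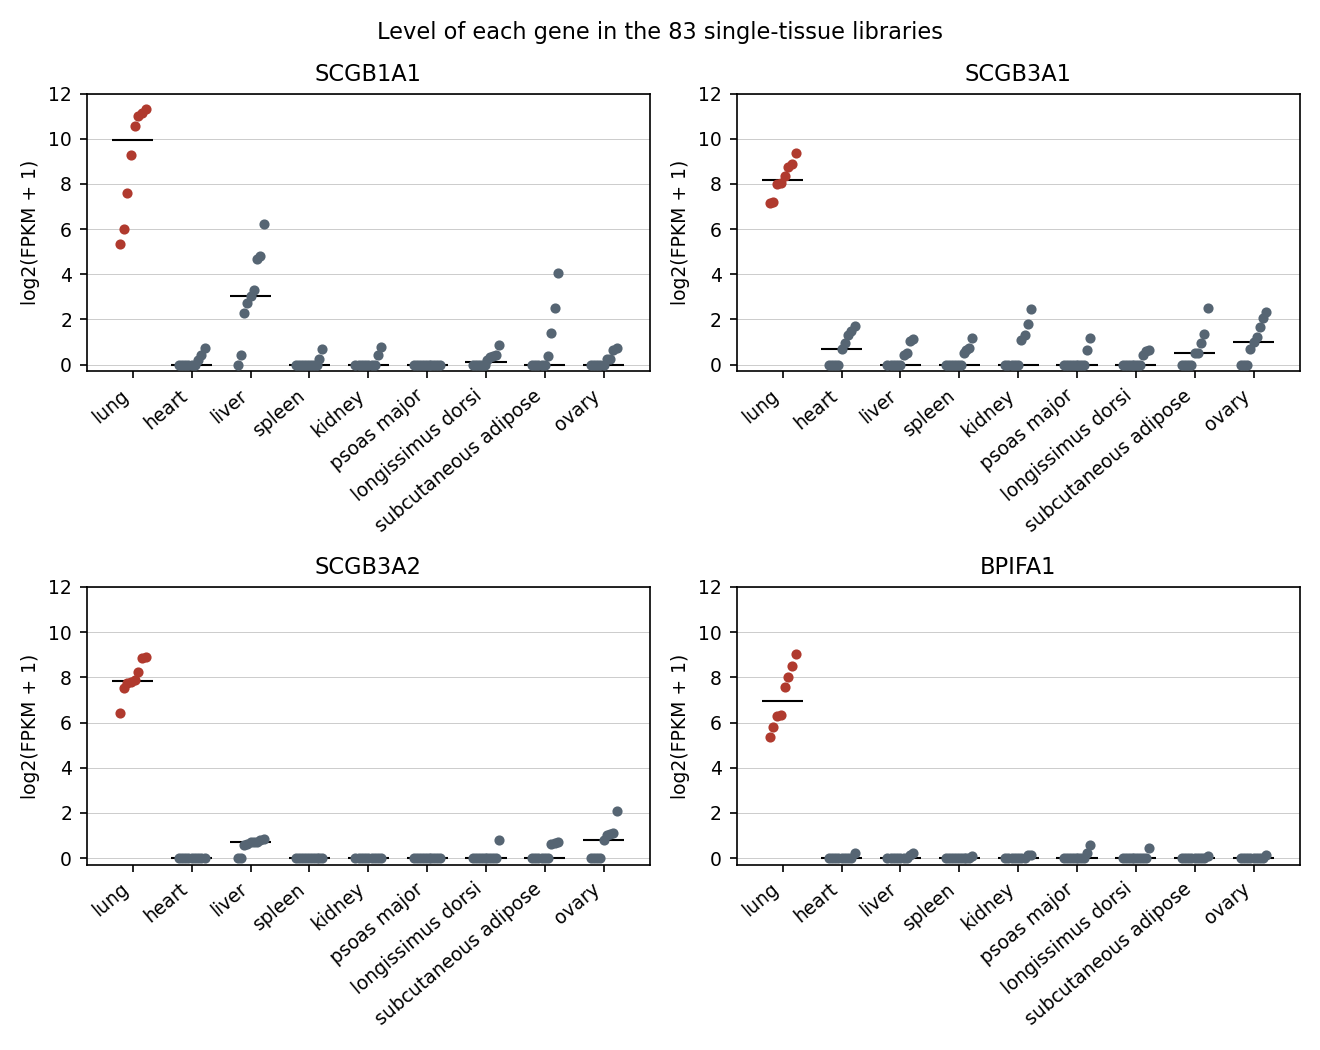
Level of each gene as log2(FPKM + 1) in the 83 single-tissue libraries, 1 point per library and breed, with lung in red, the other tissues in grey and the median as a line. The lung points stand above those of the other tissues for SCGB3A1, SCGB3A2 and BPIFA1, whereas for SCGB1A1 the highest liver (74.4 FPKM) lies above the lowest lungs (39.7 and 62.7 FPKM).

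The classes were then ordered by level for each gene. Of 28 pairs of neighbouring classes in the order of mean log2 levels, 5 differed at an adjusted p below 0.05, and 4 of these were lung over the next class (6 of the pairs differed when Bamei, Berkshire or Hampshire was left out). The fifth was SCGB1A1 in liver over subcutaneous adipose, by 2.55 ± 0.50 on the log2 scale (SE, limma, adjusted p = 7.07e-06), a contrast in which 68% of all genes tested were called in either direction. SCGB1A1 ran in the order lung, liver, adipose, heart, skeletal muscle, ovary, kidney, spleen, and no neighbours from adipose down differed beyond their spread (limma, adjusted p of 0.222 to 0.992). SCGB3A1 ran in the order lung, heart, ovary, kidney, adipose, liver, skeletal muscle, spleen. SCGB3A2 ran lung, liver, ovary, adipose, skeletal muscle, then heart, spleen and kidney, and BPIFA1 lung, skeletal muscle, liver, heart, kidney, ovary, adipose, spleen. No neighbours after lung in these 3 orders differed beyond their spread (limma, adjusted p of 0.119 to 1). Only neighbours were tested for these 3 genes, so classes farther apart in an order may differ. SCGB3A2 in liver, for example, had a class mean of 0.75 on the log2 scale, against 0 in heart, spleen and kidney. The orders are of scaled values and are not the same in the deposited FPKM. There ovary came next after lung for SCGB3A2, with a mean of 0.813 FPKM against 0.505 in liver. It also came next for SCGB3A1, with a mean of 1.37 FPKM against 0.795 in heart.

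Liver was the only tissue besides lung in which a member passed 20 FPKM. For SCGB1A1 the 9 livers had 7.10 FPKM in Bamei, 8.84 in Jinhua, 74.4 in Meishan, 26.8 in Rongchang, 0.363 in Berkshire, 3.84 in Hampshire, 5.72 in Landrace, 24.4 in Large White and a listed 0 in Piétrain. Values above 20 FPKM therefore came from 3 breeds, and 7 of 9 livers passed 1 FPKM. Liver lay above each of the 6 other classes besides lung, by 2.55 to 3.37 on the log2 scale (limma, adjusted p of 2.81e-10 to 7.07e-06), in contrasts that called most genes in either direction: 68.5% for heart, 71.1% for spleen, 66.7% for kidney, 73.6% for skeletal muscle, 80% for ovary and 68% for adipose. Without Meishan the difference from adipose was 2.08 (limma, adjusted p = 0.000311). In the Meishan liver SCGB3A1, SCGB3A2, BPIFA1, BPIFB1, TFF3 and SFTPB were listed at 0, SFTPC stood at 0.0955 FPKM, AGER at 0.142 and SFTPD, another surfactant protein, at 0.638. TFF3 was listed at 0 in all 9 livers. Whether lung RNA had a part in this liver value was not tested.

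Adipose had SCGB1A1 at 15.8 FPKM in Jinhua, 4.65 in Rongchang, 1.66 in Large White and 0.302 in Meishan, and at a listed 0 in the other 5 breeds. SCGB1D1, the nearby secretoglobin gene, had its highest tissue median in adipose, 18.6 FPKM, against medians of 0.401 in lung and 0 in the other tissues, a difference given without a test. Its adipose values were 33.1 FPKM in Bamei, 118 in Jinhua, 118 in Rongchang, 1.69 in Berkshire, 1.64 in Hampshire, 5.51 in Landrace, 22.1 in Large White, 18.6 in Piétrain and a listed 0 in Meishan. In Hampshire and Meishan adipose was below lung, which had 2.98 and 0.387 FPKM. Jinhua and Rongchang were thus the highest adipose libraries for both genes, while in Bamei adipose SCGB1D1 stood at 33.1 FPKM and SCGB1A1 was listed at 0. SFTPB stood at 0.0818 FPKM in Jinhua adipose and at 0.464 in Rongchang adipose. Whether reads of the 2 genes were kept apart in the counting was not tested.

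SCGB3A1 outside lung passed 1 FPKM most often in Hampshire. It reached 1 FPKM in 17 of 75 libraries, and 7 of these were the tissues of Hampshire, in which 7 of 8 passed. In each of the other breeds with 8 such tissues, 0 to 2 passed, a difference between breeds that was not tested. The highest values were 4.60 FPKM in Hampshire adipose, 4.49 in Piétrain kidney and 4.07 in Piétrain ovary, which are small beside the lowest lung, 141 FPKM in Large White.

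Between the lungs of the 8 breeds, the 4 genes differed in how far they spread. SCGB1A1 ranged 64.4-fold between the lowest and the highest lung, with a coefficient of variation of 90.6%, BPIFA1 13.2-fold (87.9%), SCGB3A2 5.48-fold (49.6%) and SCGB3A1 4.75-fold (53.3%). On the log2 scale the SD between breeds was 2.41 for SCGB1A1, 1.35 for BPIFA1, 0.80 for SCGB3A1 and 0.77 for SCGB3A2, against a median of 0.20 over the 14034 genes kept in lung. Ranked by this SD, SCGB1A1 was number 44, BPIFA1 number 144, SCGB3A1 number 439 and SCGB3A2 number 481. Mean levels over the 8 lungs were 1163 ± 1053 FPKM for SCGB1A1, 336 ± 179 for SCGB3A1, 270 ± 134 for SCGB3A2 and 199 ± 175 for BPIFA1 (SD, n = 8). The alveolar genes of the same libraries spread less: SFTPB had an SD of 0.20, AGER of 0.21 and SFTPC, the surfactant protein made by type II cells alone, of 0.35. FOXJ1, the factor that drives the ciliated cell programme, had 0.34 and the secreted trefoil factor TFF3 0.62.

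**Figure D2:**
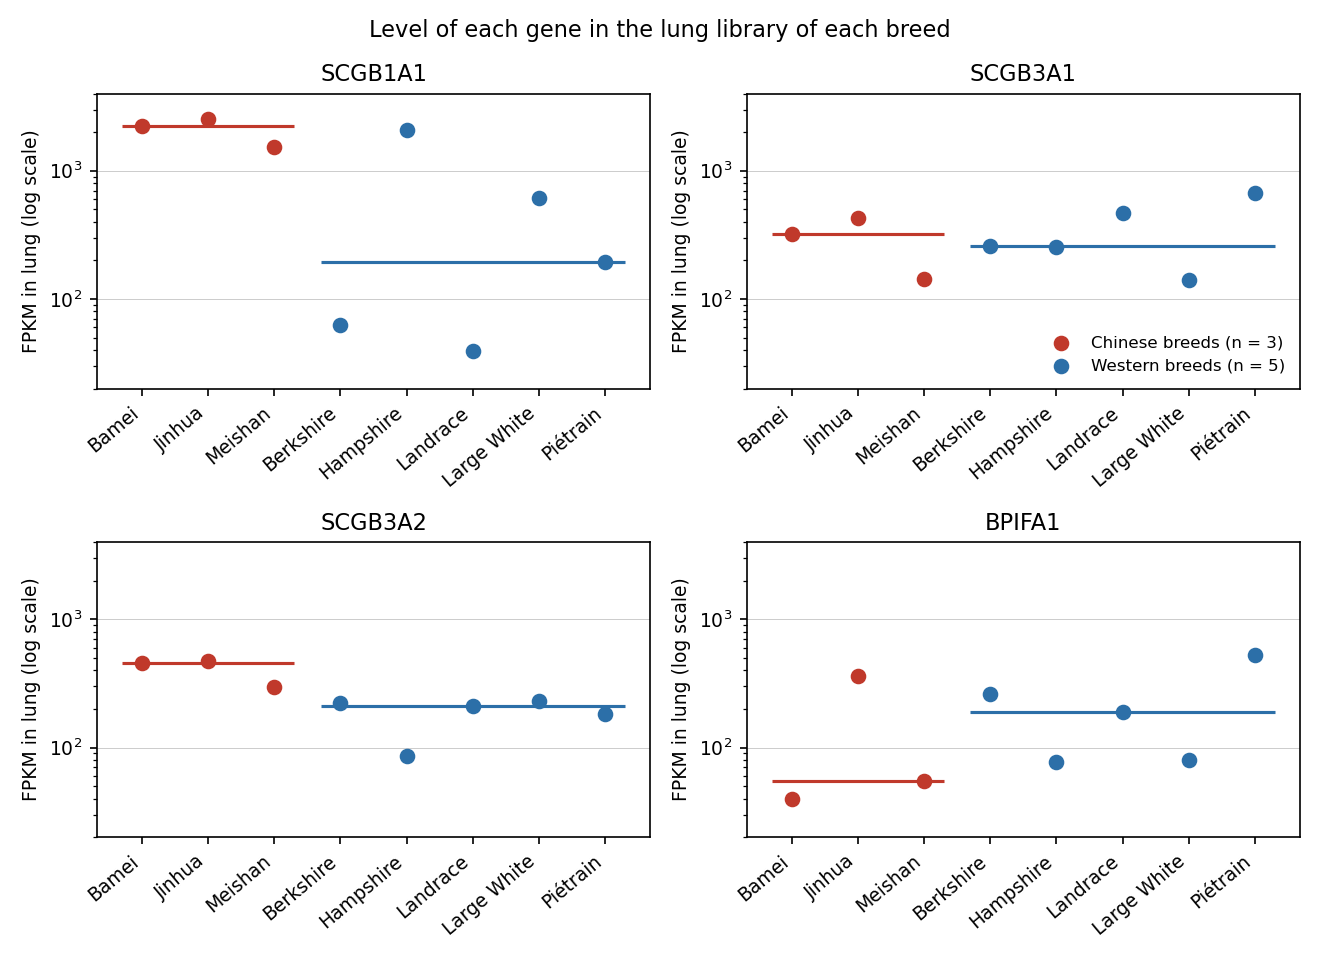
FPKM of each gene in the lung library of each breed on a log axis, with Chinese breeds in red (n = 3), Western breeds in blue (n = 5) and the median of each as a line. SCGB1A1 spans 39.7 to 2553 FPKM and BPIFA1 39.9 to 528, whereas SCGB3A1 stays between 141 and 668 and SCGB3A2 between 85.9 and 471.

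The make-up of the 4 transcripts differed from lung to lung. Their sum was 803 to 3815 FPKM (median 1794), or 0.073% to 0.393% of the FPKM total of the library. SCGB1A1 was the most abundant in 5 lungs, with 73.2% of the sum in Bamei, 66.9% in Jinhua, 75.4% in Meishan, 83.3% in Hampshire and 57.6% in Large White. In the other 3 it was SCGB3A1, with 32.4% in Berkshire, 51.4% in Landrace and 42.5% in Piétrain, where SCGB1A1 held 7.80%, 4.37% and 12.4%. BPIFA1 was the lowest of the 4 in the 5 lungs led by SCGB1A1, at 1.30% to 9.48% of the sum, and held 20.9% to 33.6% in the other 3. The ratio of SCGB1A1 to BPIFA1 accordingly ran from 0.209 in Landrace to 56.2 in Bamei. SCGB1A1 was number 25 of all gene IDs by FPKM in Jinhua lung and number 1736 in Landrace lung, while SCGB3A1 stayed between numbers 120 and 497.

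**Figure D3:**
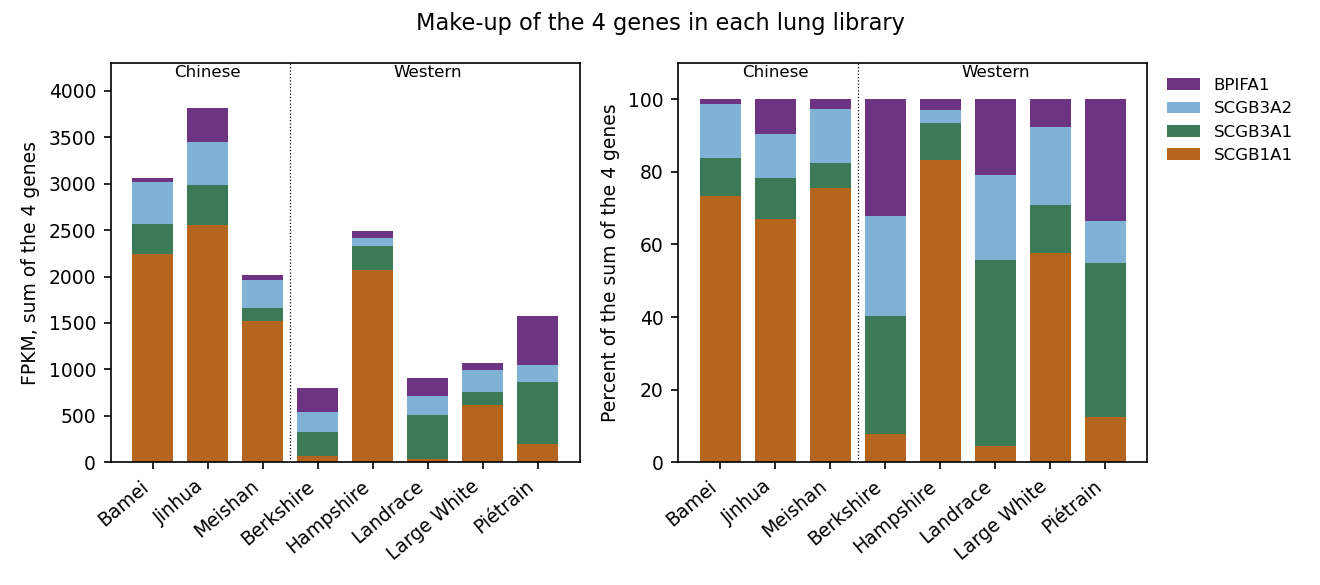
Level of the 4 genes in each lung library, stacked as summed FPKM (left) and as percent of their sum (right), with Chinese breeds left of Western breeds. SCGB1A1 makes up 57.6% to 83.3% of the sum in 5 lungs and 4.37% to 12.4% in Berkshire, Landrace and Piétrain.

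The levels of the 4 genes were next compared pair by pair over the 8 lungs, as log2 levels. SCGB3A1 and BPIFA1 gave the highest correlation, with a Pearson r of 0.70 (exact permutation p = 0.0594, adjusted 0.357 over 6 pairs) and a Spearman rho of 0.52 (exact p = 0.197, adjusted 0.590). Without Large White and Piétrain, the lungs farthest from the median of SCGB3A1, r was 0.55 (exact p = 0.258). SCGB1A1 and BPIFA1 had r of -0.51 (exact p = 0.193, adjusted 0.578) and rho of -0.33 (exact p = 0.428, adjusted 0.743), and r of -0.51 without Berkshire and Landrace (exact p = 0.290). SCGB1A1 had r of -0.32 with SCGB3A1 (exact p = 0.434, adjusted 0.844; rho -0.10) and of 0.25 with SCGB3A2 (exact p = 0.563, adjusted 0.844; rho 0.57). SCGB3A2 had r of 0.03 with SCGB3A1 and of -0.06 with BPIFA1 (exact p of 0.947 and 0.889, both adjusted to 0.947; rho of -0.21 each). Without Hampshire and Jinhua the pair of SCGB3A2 and BPIFA1 had r of -0.86 (exact p = 0.0181, not adjusted), so its value rests on those lungs. No pair passed after adjustment at n = 8, and the labels give no batch within which to repeat them.

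Marker lists of other cell types were summed in each lung. The airway cartilage list (11 of 13 genes matched, led by COL2A1, COL9A1, MATN1 and HAPLN1) summed to 17.7 FPKM in Bamei lung, 89.1 in Jinhua, 44.8 in Meishan, 86.9 in Berkshire, 14.1 in Hampshire, 87.6 in Landrace, 38.8 in Large White and 68.8 in Piétrain, a 6.33-fold range. The 4 lungs with the highest cartilage sums (Jinhua, Landrace, Berkshire and Piétrain) were the 4 with the most BPIFA1 (189 to 528 FPKM, against 39.9 to 80.5 in the other 4), but the order within them differed, since Piétrain had the most BPIFA1 and the lowest cartilage sum of the 4. SCGB3A1 shared 3 of its 4 highest lungs with the cartilage list, and SCGB1A1 and SCGB3A2 shared 1 each. BPIFA1 also shared 3 of its 4 highest lungs with the ciliated, smooth muscle, basal cell and other secretory lists and 2 with the alveolar type II list. Overlaps of 4 of 4 were also found for SCGB3A1 with the other secretory list and for BPIFB1 with the ciliated list. Sets of 4 among 8 lungs share members readily by chance, many such overlaps were looked at, and none was tested. The other secretory list summed to 337 FPKM in Large White and 1110 in Piétrain at the ends of its range. No gene of the cartilage list was listed at 0 in a lung, and COL2A1, the main collagen of cartilage, ran from 3.11 FPKM in Hampshire to 42.1 in Berkshire. Which part of the lung was sampled is not in the labels, and the part of these markers in the spread of the 4 genes was not tested.

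The ciliated cell list (17 of 25 genes matched, led by FOXJ1, ROPN1L, CAPS and ZMYND10) summed to 101 to 181 FPKM, a 1.79-fold range, with Piétrain and Jinhua highest and Bamei lowest. The alveolar type II list (8 of 10 matched, led by SFTPC, SFTPB, SLC34A2 and NAPSA) summed to 4763 to 8278 FPKM, and the alveolar type I list (4 of 7 matched, led by AGER, CAV1, AQP5 and PDPN) to 980 to 1446 FPKM. Smooth muscle genes summed to 327 FPKM in Hampshire and 994 in Berkshire at the ends of a 3.04-fold range. Macrophage genes summed to 804 to 1372 FPKM, endothelial genes to 247 to 381, basal cell genes to 3.14 to 7.72 and neuroendocrine genes to 0.930 to 4.44. In the submucosal gland list LPO alone was matched, at 0.0197 to 0.528 FPKM. In the lungs lowest for SCGB1A1 the ciliated sum was 148 FPKM in Berkshire, above the median of 137 over the 8 lungs, and 124 FPKM in Landrace, below it.

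**Figure D4:**
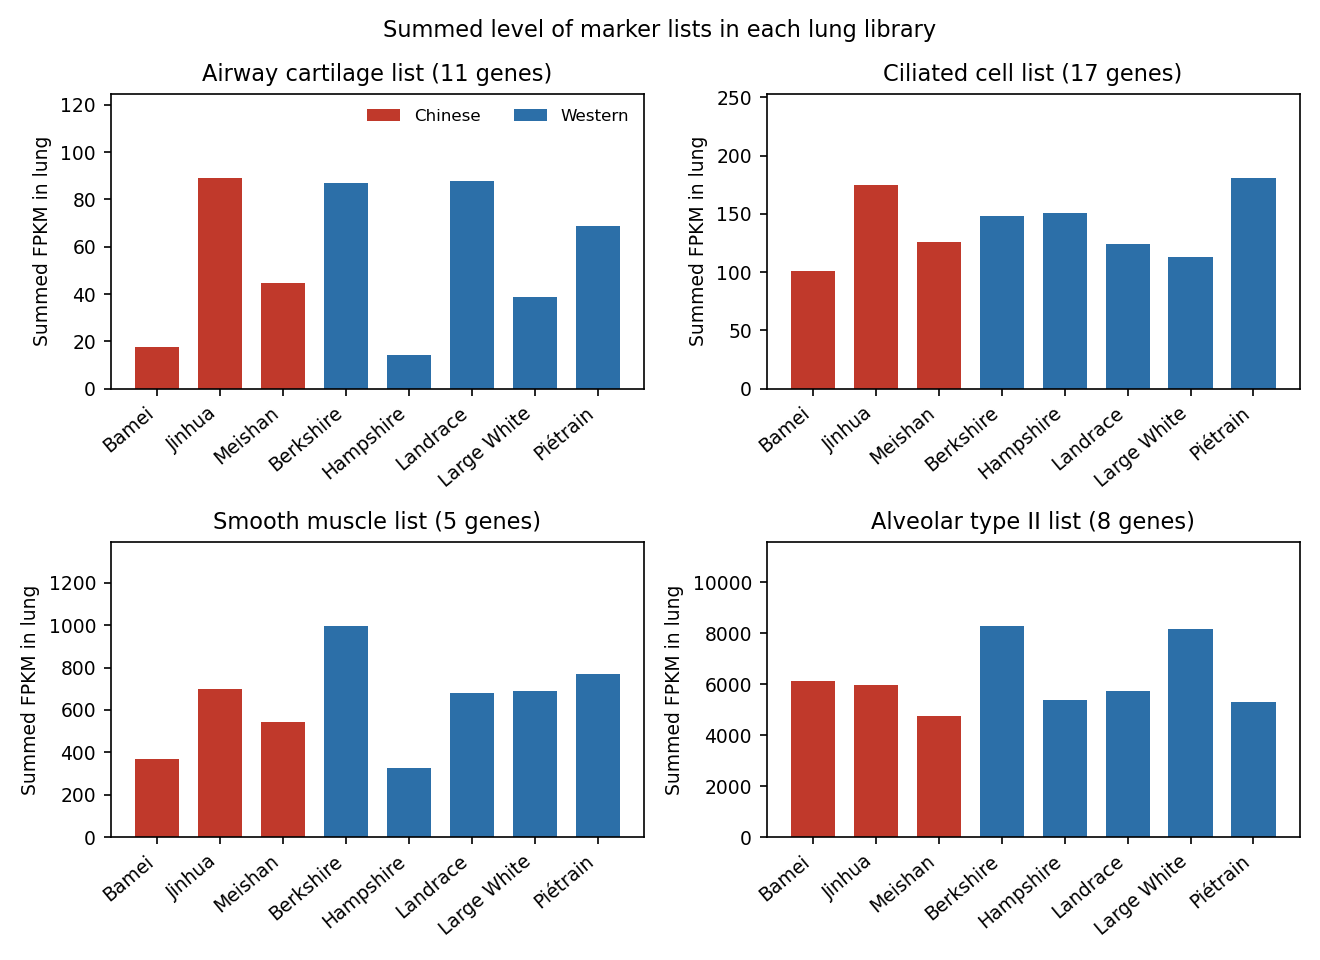
Summed FPKM of the airway cartilage, ciliated cell, smooth muscle and alveolar type II lists in each lung library, with Chinese breeds in red left of Western breeds in blue. Cartilage sums span 14.1 to 89.1 FPKM, whereas ciliated sums span 101 to 181.

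Other airway secretory genes were followed as the family's companions. Of 18 listed genes 10 were matched, 9 were tested and 5 were called in lung (BPIFB1, CYP4B1, PIGR, TFF3 and CLCA1), against the 1.46% of all genes. BPIFB1 passed the filter for testing only through its lung levels. TFF3 stood at 131 to 480 FPKM, the cytochrome P450 gene CYP4B1 at 122 to 271, CLCA1 at 15.6 to 74.7, and PIGR, the receptor that carries IgA across the epithelium, at 3.37 to 24.7. AGR2, a disulfide isomerase of mucus cells, had 3.29 to 35.6 FPKM and a smallest log2 difference of 0.73 from ovary, below the threshold of 1. MSMB had a log2 difference of -3.50 from spleen. Of the ciliated genes 6 of 17 were called in lung (FOXJ1, TEKT2, RSPH4A, CAPS, SNTN and ZMYND10), and ovary was the nearest class of each. Of the cartilage genes 3 of 11 were called (COL2A1, COL9A1 and MATN1), of the alveolar type II genes 5 of 8, of the alveolar type I genes 3 of 4, of the macrophage genes 1 of 4 (MARCO) and of the basal cell, smooth muscle, endothelial, neuroendocrine and submucosal gland genes none of 4, 5, 4, 2 and 1. None of the 5 airway transcription factors tested was called, and the log2 difference of lung from the highest class was -1.35 for FOXA2 and -5.71 for FOXA3 (liver) and -2.32 for CEBPA and -1.24 for NFIB (adipose).

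Within the BPI fold family, 10 of 11 listed genes were matched and 5 reached the level needed for testing. Of these BPIFA1, BPIFB1 and BPIFB2 were called in lung, against 1.46% of all genes. These 3 passed the filter only through their lung levels, so their calls were largely fixed in advance. Outside lung BPIFB1 reached 0.427 FPKM at most, in ovary, and BPIFB2 passed 1 FPKM in 1 kidney alone. BPIFB2 was called at a log2 difference of 1.07, close to the threshold of 1. BPIFB1 had 17.5 FPKM in Bamei lung, 77.4 in Jinhua, 8.51 in Meishan, 72.9 in Berkshire, 43.5 in Hampshire, 35.4 in Landrace, 20.4 in Large White and 226 in Piétrain. It was highest in Piétrain, as BPIFA1 was, and its SD between breeds was 1.44 on the log2 scale. Over the 8 lungs its Pearson r with BPIFA1 was 0.90, number 41 of 8935 genes, a description of 8 libraries that both genes share. BPIFB2 had 0.459 to 9.82 FPKM in lung. BPI, the bactericidal protein of neutrophils, had a median of 0.813 FPKM in lung and 1.92 in ovary, and LBP, the lipopolysaccharide-binding protein made in liver, a median of 0.712 in lung and 185 in liver. BPIFA2, BPIFA3, BPIFB3 and BPIFB6 stayed at or below 0.117 FPKM in lung, and BPIFB4 was listed at 0 in all 8 lungs. Of 10 listed secretoglobins 4 were matched, and the fourth, SCGB1D1, had 0 to 8.61 FPKM in lung and was not called there.

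The genes most like each member were taken over 8 lungs and over 9 tissue means, among 8935 genes with a symbol and a mean of at least 1 FPKM in lung, as a description with no p. Over the lungs SCGB1A1 ran most like SDC2, ZFAND4, SNAPC2, NFE2L2, AGFG2 and STAT5B (Pearson r of 0.93 to 0.95), although SDC2 itself moved only between 65.5 and 86.7 FPKM. SCGB3A1 ran most like RETREG1, LRRC1, MARVELD3, HDAC7, KRT15 and SIAE (0.93 to 0.97). KRT15, a keratin of airway basal cells, had 1.09 to 5.07 FPKM. SCGB3A2 ran most like GORASP2, MME, FAP, KDR, BMP2K and ALDH16A1 (0.91 to 0.94), and BPIFA1 most like SHE, GULP1, PHACTR2, DKK3, ANO10 and PGRMC1 (0.95 to 0.98). No member was among the 6 of another.

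Over the 9 tissue means, where lung is the one high point, r was near 1 for many lung genes. BPIFA1 ran most like KRT4, SFTPB, CXCL8, CLIC6, BPIFB1 and CSF2 (r of at least 0.998). SCGB3A2 was closest to CLDN18, ANKFN1, MATN1, BPIFB1, WNT3A and SFTPD, and SCGB3A1 to KCNMB2, FAM177B, MATN1, CLDN18, WNT3A and CSF2. SCGB1A1, with its liver values, was closest to ST6GALNAC1, CYP7A1, IL20RA, KCNK3, VIPR1 and SFTPD (0.94 to 0.98), and its r with the other 3 members was 0.90 to 0.93.

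Chinese and Western breeds were compared in lung, 3 libraries against 5. SCGB3A2 had 297 to 471 FPKM in the Chinese lungs (median 458), against 85.9 to 232 in the Western lungs (median 212), and the groups did not overlap, as was the case for 5.17% of the 14034 genes tested. Its difference was 1.17 ± 0.33 on the log2 scale (SE, limma, 95% interval of 0.42 to 1.91, unadjusted p = 0.00672, adjusted p = 0.367). The intervals of the 4 genes are per gene and not adjusted for the number of genes tested, so one can leave out 0 without a call. SCGB1A1 had 1521 to 2553 FPKM in the Chinese lungs (median 2243), against 39.7 to 2073 in the Western lungs (median 195), and the Hampshire lung alone made the groups overlap. Its difference was 3.15 ± 1.20 (SE, limma, 95% interval of 0.38 to 5.91, unadjusted p = 0.0304, adjusted p = 0.573), and 3.95 without Hampshire (adjusted p = 0.219). That was the highest value with a lung left out, the range being 2.52 to 3.95 (limma, adjusted p of 0.219 to 0.868).

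SCGB3A1 had 144 to 430 FPKM in the Chinese lungs, against 141 to 668 in the Western lungs, and BPIFA1 39.9 to 362 against 76.5 to 528, so the groups overlapped for both. SCGB3A1 differed by -0.21 ± 0.54 between Chinese and Western lungs (SE, limma, interval of -1.43 to 1.02, adjusted p = 0.973). BPIFA1 differed by -0.92 ± 0.85 (limma, interval of -2.86 to 1.03, adjusted p = 0.885), with Jinhua high and Bamei and Meishan low among the Chinese lungs. None of the 4 genes was called, against 0.164% of the genes tested (23 genes, of which 6, or 0.0428%, were higher in the Chinese breeds), and 7.99% of all genes had an unadjusted p below 0.05. No gene of the marker lists was called either.

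The mixtures were set beside the lungs of the same breeds, a comparison added after seeing the data. A mixture may hold RNA of the same lung, and the 4 genes were low in most other tissues. A relation between mixture and lung is therefore no independent repeat of a difference between breeds. SCGB1A1 had 404 FPKM in the Bamei mixture, 346 in Jinhua, 121 in Meishan, 166 in Rongchang, 5.39 in Berkshire, 269 in Hampshire, 3.85 in Landrace, 14.0 in Large White and 48.9 in Piétrain. The breeds with high SCGB1A1 in lung were high here, and Berkshire and Landrace were again the lowest. Over the 8 breeds with both, the Pearson r of the log2 levels in mixture and lung was 0.92 (exact permutation p = 0.00196, adjusted 0.00446 over 8 relations), with a rho of 0.95 (exact p = 0.00114, adjusted 0.00456). Without Berkshire and Landrace it was 0.77 (exact p = 0.0486). The share of lung in a mixture is unknown, so the ratio to SFTPB was also taken. SCGB1A1 was 215% of SFTPB in the Bamei mixture and 187% in Bamei lung, 152% and 188% in Jinhua, 129% and 152% in Meishan, 4.04% and 4.17% in Berkshire, 253% and 169% in Hampshire, 1.45% and 2.81% in Landrace, 27.2% and 41.6% in Large White, and 10.5% and 16.8% in Piétrain. On the log2 scale this ratio had r of 0.99 (exact p = 0.000198, adjusted 0.000893) and rho of 0.90 (exact p = 0.00456, adjusted 0.0122). Whether mixture and lung came from the same animal is not given, and the 3 Chinese and 5 Western breeds are too few to repeat r within each.

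SCGB3A1 also ran alike in mixture and lung, with r of 0.96 (exact p = 0.000223, adjusted 0.000893) and rho of 0.95 (exact p = 0.00114, adjusted 0.00456), and r of 0.92 without Large White and Piétrain (exact p = 0.00833). As a ratio to SFTPB its r was 0.89 (exact p = 0.00223, adjusted 0.00446) and 0.73 without the same lungs (exact p = 0.108). The rho of that ratio was 0.76 (exact p = 0.0368, adjusted 0.0735) and did not pass after adjustment. SCGB3A2 had r of 0.32 (exact p = 0.438, adjusted 0.438; rho 0.29) and BPIFA1 r of 0.61 (exact p = 0.104, adjusted 0.166; rho 0.52). As a ratio to SFTPB, r was 0.58 for SCGB3A2 (exact p = 0.129, adjusted 0.171), or 0.48 without Bamei and Hampshire (exact p = 0.308). For BPIFA1 this ratio had r of 0.54 (exact p = 0.164, adjusted 0.187), or -0.28 without Jinhua and Piétrain (exact p = 0.600). Whether the members differ in this relation was not tested. The Piétrain mixture stood apart: without it r was 0.94 for SCGB1A1, 0.93 for SCGB3A1, 0.61 for SCGB3A2 and 0.31 for BPIFA1.

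**Figure D5:**
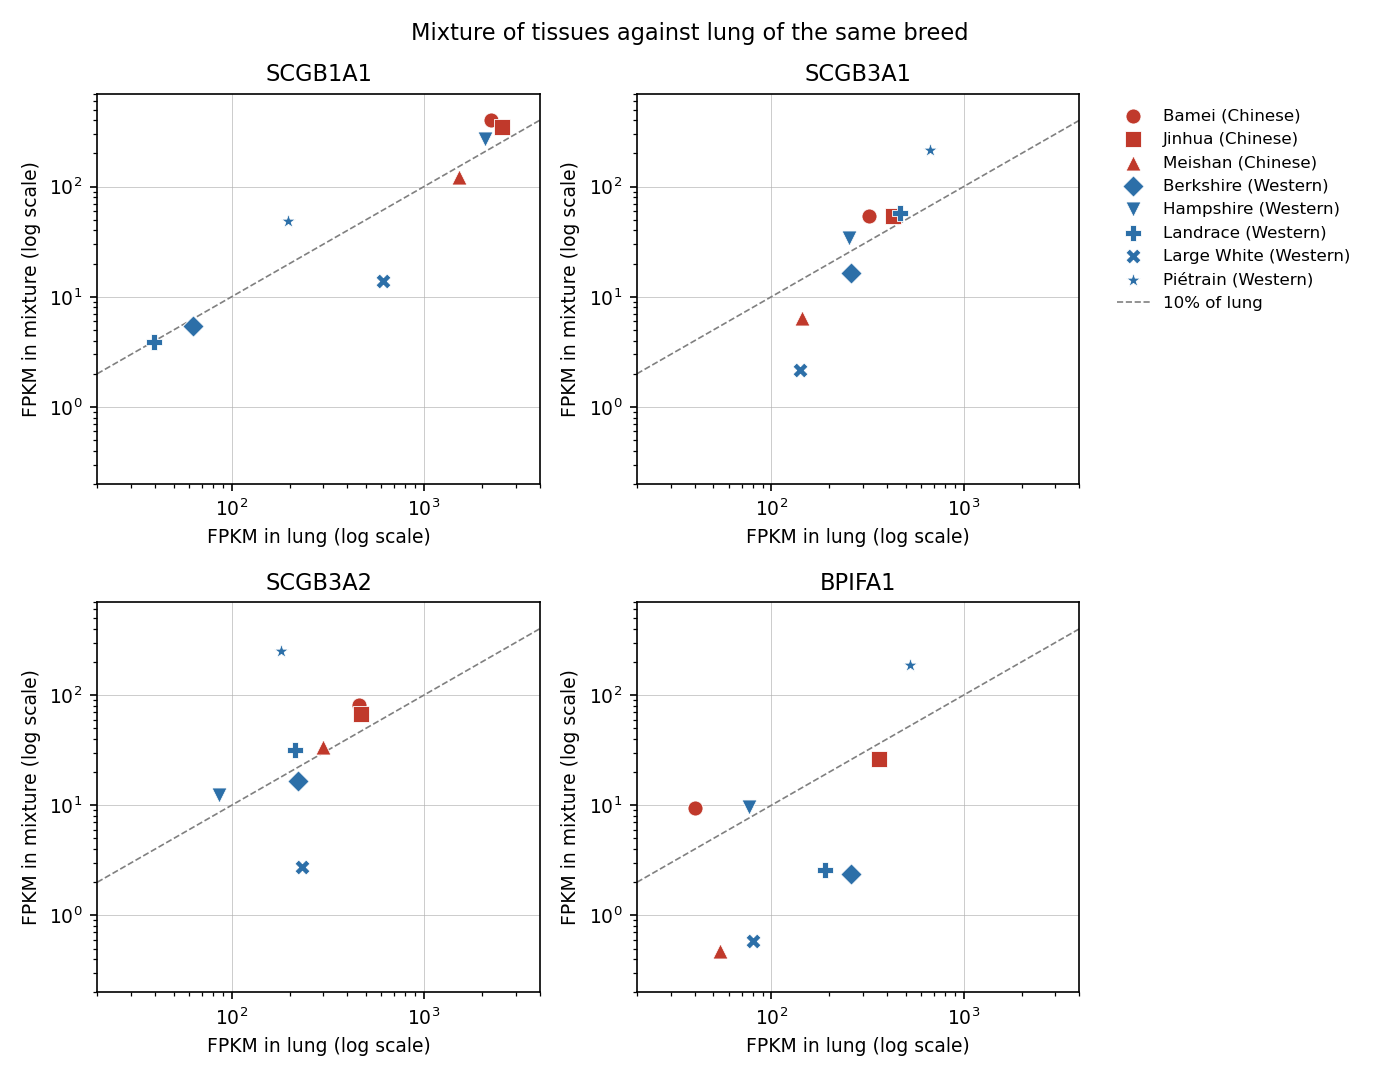
FPKM in the mixture of a breed against FPKM in its lung on log axes, 1 symbol per breed (Chinese in red, Western in blue, n = 8), with a dashed line at 10% of lung. SCGB1A1 follows the line from Landrace (3.85 in mixture, 39.7 in lung) to Jinhua (346 in mixture, 2553 in lung), with Large White below it and Piétrain above it, while BPIFA1 falls far below it in Meishan, Large White, Landrace and Berkshire.

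As a share of the lung level of the same breed, the mixtures held 2.27% to 25.0% of SCGB1A1 (median 11.3%), 1.55% to 32.1% of SCGB3A1 (12.5%), 1.18% to 139% of SCGB3A2 (14.4%) and 0.733% to 35.3% of BPIFA1 (4.34%), beside 3.47% to 40.1% of SFTPB (12.5%). In 3 breeds the share of BPIFA1 was well under that of the secretoglobins: 0.871% in Meishan, against 4.47% to 11.4%, 0.912% in Berkshire, against 6.30% to 8.60%, and 1.36% in Landrace, against 9.71% to 14.9%. In the Large White mixture all 4 were low, at 0.733% for BPIFA1 and 1.18% to 2.27% for the secretoglobins. The Jinhua mixture lay between, with BPIFA1 at 7.31% and the secretoglobins at 12.6% to 14.4%. In the Bamei and Hampshire mixtures BPIFA1 was at 23.5% and 12.7%, close to the shares of the secretoglobins there (16.9% to 18.0% and 13.0% to 14.4%). The Piétrain mixture had 251 FPKM of SCGB3A2, above the 181 FPKM of the Piétrain lung, while SCGB1A1 was at 25.0%, SCGB3A1 at 32.1%, BPIFA1 at 35.3% and SFTPB at 40.1% of lung. That mixture also had the highest cartilage sum (33.8 FPKM, against 5.36 to 12.4 in the other 8) and ciliated sum (75.2 FPKM, against 8.39 to 31.7). Its alveolar type II sum (2365 FPKM, next 1461 in Rongchang) and alveolar type I sum (466 FPKM, next 356 in Jinhua) were the highest as well. The same held for its other secretory sum (513 FPKM) and basal cell sum (7.56 FPKM).

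None of the 4 genes was called when each mixture was set against the single tissues of the same breed, averaged, over 8 breeds. That comparison called 64.7% of the 17284 genes tested in either direction, and 47.3% as lower in the mixtures. The log2 difference of mixture minus mean was 0.26 ± 0.32 for SCGB1A1 (SE, limma, adjusted p = 0.504, higher in 6 of 8 breeds), 0.22 ± 0.37 for SCGB3A1 (adjusted p = 0.629, 5 of 8), 0.70 ± 0.56 for SCGB3A2 (adjusted p = 0.300, 6 of 8) and -0.63 ± 0.57 for BPIFA1 (adjusted p = 0.362, 3 of 8). Without Large White the differences of SCGB1A1 and SCGB3A2 were 0.57 and 1.14 (limma, adjusted p of 0.0259 and 0.0393) and passed the test. Passing was common, since 10523 to 10911 genes were called when a breed was left out. Without Piétrain they were 0.08 and 0.24 (limma, adjusted p of 0.838 and 0.630). The signs of SCGB1A1 and SCGB3A1 turned with the scaling, to -0.15 and -0.23 in the deposited values. With the mean of log2 values as reference all 4 genes were called as higher in the mixtures, at 4.27 for SCGB1A1, 3.47 for SCGB3A1, 3.99 for SCGB3A2 and 2.18 for BPIFA1, whose sign turned (limma, adjusted p of 0.000621, 0.000409, 0.000147 and 0.0198). A mean of logs lies far below the mean for a gene high in 1 tissue, so these calls follow largely from that choice of reference. Over the 7 other settings, this among them, 9746 to 14088 genes were called.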

How the data were processed

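Total RNA was extracted with TRIzol and made into Illumina TruSeq libraries, per the labels' protocols. FPKM values were deposited by the authors for each of the 92 libraries. The submitters' processing notes name TopHat, Cufflinks 2.2.1 and Sscrofa10.2. The annotation release, options and strand setting are not given in the sources used here.

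For each fit FPKM were rescaled by median ratios, and a gene was kept if 3 or more libraries held it at 1 FPKM or above. Their log2 values (pseudocount 1) entered limma 3.58.1 with trend and robust moderation (R 4.3.3, statmod 1.5.0), and p-values were adjusted by Benjamini-Hochberg over all genes tested. Both skeletal muscles formed one class. Breed, which the labels give, paired the libraries as a block in the tissue fit. Correlations were tested two-sided by exact permutation (Python 3.11.15, scipy 1.17.1) and used log2 values. For mixture and lung these were of the deposited FPKM (pseudocount 1), or of its ratio to SFTPB without a pseudocount. The fits were tested on simulated data.

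The members, the 14 gene lists (88 of 135 symbols matched, BPIFB1 on 2) and the tests were chosen with earlier results of these data known. Named were the members, the detected genes of both families, per member the 6 genes of highest Pearson r over lungs and over tissue means, and up to 4 genes of each list by level in lung. Others were named because they were called, or beside a single library, after their values were seen. Alternatives changed the scaling (none, or quantile), the pseudocount (0.1), the filter (off, or 5 FPKM), the moderation, the block, the log2 threshold (2) and the averaging of tissues, and left out each breed. The correlations of mixture and lung, and leaving out breeds in the order of tissues, were added after seeing the data.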

Additional observations from a re-analysis of the deposited data

Results flagged for a closer look

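In 8 of 18 groups of a member and a tissue or mixture with at least 1 library at 1 FPKM, the highest library stood farther from the next one than Dixon's limit allows. For normally distributed values chance flags about 1 in 20 groups. The limit was applied to FPKM and not to log2 values, and skewed groups or groups with many listed zeros meet it easily. The 8 of 18 can therefore not be set against that rate. SCGB1A1 in liver had 74.4 FPKM in Meishan, and the next liver had 26.8. SCGB1A1 in subcutaneous adipose had 15.8 FPKM in Jinhua, and the next library had 4.65. SCGB3A1 in psoas major had 1.25 FPKM in Hampshire (next 0.545), and in adipose 4.60 FPKM in Hampshire (next 1.54). SCGB3A2 in ovary had 3.28 FPKM in Bamei (next 1.17). The Piétrain mixture was flagged for 3 members: SCGB3A1 at 214 FPKM (next 57.9), SCGB3A2 at 251 FPKM (next 82.1) and BPIFA1 at 187 FPKM (next 26.4).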

How the results depend on the processing

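All 4 members stayed called in lung under each of the 8 other settings and without each breed, with a smallest log2 difference of 5.01 to 6.03 for SCGB1A1 over the settings and 4.67 to 5.56 without a breed. The number of genes called in lung was 251, and 397 with FPKM as deposited, 401 with a pseudocount of 0.1, 77 with a log2 difference above 2 and 238 to 292 without a breed. Leaving out the replicate block of breed gave 249 genes, 5 neighbouring pairs and log2 differences of 5.01, 6.88, 6.58 and 6.44 for SCGB1A1, SCGB3A1, SCGB3A2 and BPIFA1, and changed no call. The neighbouring pairs that differed numbered 5 to 6 without a breed. Between origins 23 genes were called, 14 with a filter at 5 FPKM and 10 to 24 without a lung, with 11 without Bamei and 10 without Meishan. The difference of SCGB3A1 was -0.54 to 0.25 without a lung, 0.07 without Piétrain and 0.25 without Meishan, and no member was called under any setting. For mixture minus mean of tissues, FPKM as deposited gave -0.15 for SCGB1A1 and -0.23 for SCGB3A1, and quantile normalization -0.37 and -0.40. The mean of log2 values as reference gave 4.27, 3.47, 3.99 and 2.18 for SCGB1A1, SCGB3A1, SCGB3A2 and BPIFA1, all called, because a mean of logs lies far below the mean for a gene high in 1 tissue. Leaving out each breed in turn gave mixture differences of 0.082 to 0.57 for SCGB1A1, -0.017 to 0.53 for SCGB3A1 and 0.24 to 1.14 for SCGB3A2, with the lowest value of each without Piétrain. Pearson r without a lung was -0.13 to 0.19 for SCGB3A1 and SCGB3A2 and -0.38 to 0.26 for SCGB3A2 and BPIFA1, and no pair passed. The r of mixture and lung was 0.89 to 0.98 for SCGB1A1 and 0.93 to 0.97 for SCGB3A1 without a breed. Except where a value's construction is named, the cause was not tested. Of 365 values under other settings 341 kept their direction and side of the threshold, or their size.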
